A study of Mus musculus with 9 samples.

Results

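Colon content of mice lacking plakoglobin in the intestinal epithelium was compared between acute colitis and basal conditions by sequencing counts of microbial features. The samples were chosen by their titles, as the 3 knockout (KO) DSS and 2 KO basal samples, 5 of the 9 samples of the series. All 5 came from iVilCreERT2Jupfl/fl mice, whose floxed Jup gene is removed by an inducible Cre that the villin promoter drives in intestinal epithelial cells, so the basal controls carry the same alleles and Cre. What was used to switch on the Cre, the age of the mice and the day of sampling were not in the sources used here. The DSS groups received 2.5% dextran sodium sulfate in the drinking water for 5 days. The 4 wild-type (WT) samples, 2 basal and 2 DSS, came from Jupfl/fl mice without the Cre and serve here for comparison. Whether 1 sample stands for 1 mouse is not stated in the labels, so the spread between samples, which is all that the p-values measure, may be partly technical. The table counts no host gene, so loss of Jup was not checked here.

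Plakoglobin is a protein of desmosomes and adherens junctions, which hold epithelial cells together. DSS injures the colonic epithelium and is widely used to provoke acute colitis in mice, and a less diverse gut flora is a commonly described companion of such colitis. Diversity has a pair of components: richness, the number of features present, and evenness, how equally the counts are spread over them. A community can keep its richness and still lose evenness when a few members come to dominate.

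A feature here is one row of the deposited table, known only by an identifier of 32 characters. The table does not pair identifiers with sequences or taxa, so a feature is called here by its rank, from its average share in the 5 KO samples with equal weight for each. A share is the feature's counts as a percentage of its sample's total, so a gain of one feature lowers the shares of all others in that sample. The KO samples held 361636 to 407274 counts, and 595 features had a count in at least 1 of them. Of these, 352 had 10 or more counts in at least 2 of the 5 samples, and they held 94.6% to 99.5% of each sample's counts. Unless stated, shares and presence refer to all 595 features. At this depth, the 95% Wilson interval of a single-sample share was at most 0.144 percentage points wide on each side, for counting error alone. A feature without a count has a share of up to 0.000737% to 0.00083%, the value of 3 counts. Low counts may have been removed before the table was made, since values of 1 to 3 counts numbered 2 to 5 per KO sample. Limits set by a count of 0 would then be too low, and folds given as at least too high.

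The 3 KO DSS samples were less even than the 2 KO basal samples, while the number of features was similar. Pielou's evenness, which is 1 when all features have equal shares, was 0.651 and 0.673 in KO basal 1 and 2. It was 0.51, 0.522 and 0.567 in KO DSS 1, 2 and 3. All DSS samples thus lay below both basal samples, and KO DSS 3 was the closest to them. The mean fell short of the basal mean by 0.129, at 0.533 ± 0.0297 (SD, n = 3) against 0.662 ± 0.0154 (SD, n = 2). The exact two-sided permutation p was 0.1, which is the smallest that 10 splits of 3 against 2 samples can give, so this design cannot reach 0.05. Without KO DSS 3 the difference was −0.146. Without the 5 features that exceeded 10% of any KO sample the difference was −0.00393. These 5 were picked by the same shares, and ranks 2, 3 and 5 exceeded 10% only in KO DSS samples. The smaller difference thus follows in part from the choice, and where the difference rests was not tested.

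Richness did not separate the groups. At an equal depth of 361636 counts the expected number of features was 303 and 316 in the basal samples and 273, 361 and 313 in the DSS samples. The means were 309.5 ± 9.21 (SD, n = 2) and 315.6 ± 44.0 (SD, n = 3), with an exact permutation p of 0.9. KO DSS 1 had the fewest features and KO DSS 2 the most of the 5 samples, and both had low evenness. The inverse Simpson index, which weights abundant features and reads as a number of equally common features, was 21.8 and 18.8 in basal samples and 7.4, 6.85 and 11.3 in DSS samples. Its groups did not overlap either (exact permutation p = 0.1).

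**Figure D1:**
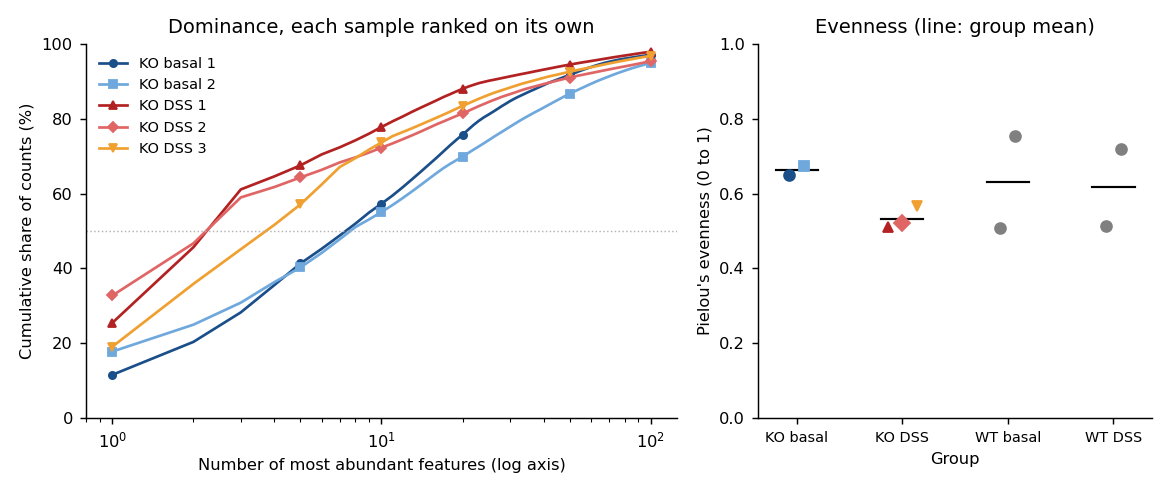
Left, cumulative share of counts (%) against the number of most abundant features (log axis) for each of the 5 KO samples, each ranked on its own, with a dotted line at 50%. Right, Pielou's evenness for every sample of the 4 groups, with a line at each group mean. The 3 KO DSS curves reach 50% at 3 to 4 features and the KO basal curves at 8, and KO DSS evenness lies at 0.51 to 0.567.

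The lower evenness was also visible as stronger dominance by the leading features. Both are computed from the same shares of the same samples, so dominance is another view of this difference and not a separate result. The single most abundant feature held 11.6% and 17.8% of the basal samples and 25.5%, 32.8% and 19.1% of the DSS samples (exact permutation p = 0.2). The 3 most abundant held 28.3% and 30.9% in basal samples. In KO DSS 1 and 2 they held 61.1% and 58.99%, and in KO DSS 3 they held 45.1%. Thus 3 features covered 50% of the counts of KO DSS 1 and of KO DSS 2 and 4 covered those of KO DSS 3, against 8 in each basal sample. The leading 10 features of each sample took 57.3% and 55.1% in basal and 77.8%, 72.3% and 73.7% in DSS samples, a difference of 18.4 percentage points (exact permutation p = 0.1). Dominance was less distinct further down the ranking. The number of features needed for 90% of the counts was 44 and 63 in basal and 25, 44 and 36 in DSS samples, so KO DSS 2 equalled KO basal 1 (exact permutation p = 0.3). Features above 1% numbered 23 and 18 in basal and 14 in each DSS sample.

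WT samples did not show the same split, but the difference between genotypes was not resolved. WT evenness was 0.508 and 0.754 in basal and 0.514 and 0.72 in DSS samples, so the samples within each WT group lay further apart than the KO groups did from each other. In both WT groups replicate 1 was the low one and replicate 2 the high one. The permutations below take no account of this. DSS minus basal was −0.014 in WT. The KO difference minus the WT difference was −0.115, with an exact permutation p of 0.417 over 60 arrangements of genotype within treatment. Without WT basal 1 it turned to 0.00837. For the share of the 10 most abundant features the same gap was 15.2 percentage points (exact permutation p = 0.433), but leaving out WT basal 1 made it −4.10 and leaving out WT DSS 2 made it −0.68.

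The features that dominated differed between KO DSS 3 and the other KO DSS samples. Altogether 13 features made up the 5 most abundant of every KO sample. The rank 1 feature was abundant throughout, with 3.94% and 17.8% in KO basal 1 and 2 and 25.5%, 13.9% and 19.1% in KO DSS 1, 2 and 3. Its groups overlapped, since KO basal 2 exceeded KO DSS 2, and the means were 10.9% ± 9.79 (SD, n = 2) under basal conditions and 19.5% ± 5.78 (SD, n = 3) with DSS. The edgeR quasi-likelihood test gave an adjusted p of 0.988.

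The rank 2 and rank 3 features were high in KO DSS 1 and 2 and low in KO DSS 3. Rank 2 held 20.2% and 32.8% of KO DSS 1 and 2 but 0.0528% of KO DSS 3. In basal samples it held 8.79% of KO basal 1 and was not detected in KO basal 2. Rank 3 held 15.4% and 12.3% of KO DSS 1 and 2 and 0.0852% of KO DSS 3, against 0.0079% and 1.95% in the basal samples. Neither passed edgeR's quasi-likelihood test, with log2 differences of 1.91 ± 2.32 (SE, adjusted p = 0.935) and 4.18 ± 2.60 (SE, adjusted p = 0.552). In WT samples, rank 3 was also higher in both DSS samples (1.5% and 8.94%) than in both basal samples (0.0213% and 0.0706%).

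The ranks 14 and 22 features also belonged to the leading 5 of KO DSS samples. Rank 14 held 3.5%, 2.56% and 0.595% of KO DSS 1, 2 and 3, above the 0.372% of KO basal 1 and no count in KO basal 2, a ratio of mean shares of 11.9. The ratio was 5.97 without KO basal 2 and, set against 3 counts in the remaining basal library, at least 2719 without KO basal 1. It was the most abundant feature whose DSS shares all lay above the basal ones (edgeR adjusted p = 0.552). Rank 22 held 2.94% and 1.33% of KO DSS 1 and 2, had no count in KO DSS 3 and KO basal 2, and had 25 counts in KO basal 1. Its ratio of mean shares was 462, which rests on those 25 counts. It was 231 without KO basal 2, 216 without KO DSS 1, and at least 1747 against 3 counts without KO basal 1. The fit gave an edgeR log2 difference of 8.87 ± 3.27 (SE, adjusted p = 0.416). In WT it was again higher in both DSS samples, at 2.01% and 1.36% against 0.00874% and no count. The rank 13 feature, at 1.86%, 2.78% and 0.0193% in DSS samples, overlapped the basal shares of 2.0% and 0.615%.

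The features of ranks 4 to 8, which led the basal samples or KO DSS 3, were low in KO DSS 1 and 2. Rank 4 held 11.6% and 5.88% of the basal samples, 0.179% and 0.549% of KO DSS 1 and 2, and 5.34% of KO DSS 3. All its DSS shares lay below the basal ones, by little in KO DSS 3, and the basal mean was 4.32 times the DSS mean, or 24.0 times without KO DSS 3 (edgeR adjusted p = 0.97). Rank 5 held 5.76% and 0.511% in basal samples, 0.0124% and 0.0155% in KO DSS 1 and 2, and 16.8% in KO DSS 3. The last value made it the second feature of that sample, above either basal share. Rank 7 behaved alike by value, at 3.53% and 1.79% in basal, 0.165% and 0.0221% in KO DSS 1 and 2, and 9.26% in KO DSS 3. Rank 6 held 7.89% and 3.93% in basal samples, then 1.89%, 0.0356% and 6.53% in KO DSS 1, 2 and 3. Rank 8 held 7.32% and 1.14%, then 0.0777%, 0.0236% and 5.47%. In both features KO DSS 3 fell between the basal shares while KO DSS 1 and 2 fell below them. Their edgeR adjusted p-values, like those of ranks 5 and 7, were 1. In WT samples the features of ranks 4, 5 and 8, and that of rank 7, were lower in both DSS samples than in both basal samples. For rank 5, for example, WT shares were 1.18% and 4.01% in basal and 0.0797% and 0.0547% in DSS samples.

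**Figure D2:**
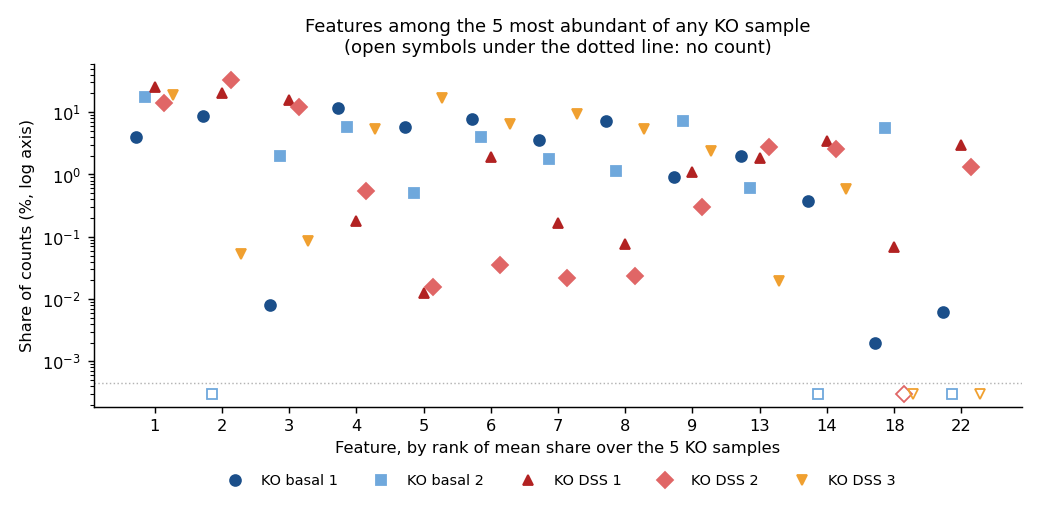
Share of counts (%, log axis) of each feature that was among the 5 most abundant of any KO sample, by rank of mean share; each symbol is 1 sample, and open symbols under the dotted line mark no count. Ranks 2, 3 and 22 are high in KO DSS 1 and 2 and low or absent in KO DSS 3, and ranks 4 to 8 show the opposite arrangement.

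A few features accounted for most of the gain in share between the group means. From the basal mean to the DSS mean, 47.7 percentage points of share changed hands, and ranks 1, 2 and 3 took 63.4% of that gain. These 3 were picked as the largest gainers, so their part is a description. On the same measure, as a fraction (the Bray-Curtis distance below), KO basal 1 and 2 were themselves 0.609 apart. The shift between the means was thus not larger than the gap between the basal samples. The losses were spread more widely, with 26.4% of them from ranks 4, 6 and 9 and 53.5% from the 10 largest losers. The rank 9 feature held 0.914% and 7.18% in basal and 1.1%, 0.299% and 2.36% in DSS samples, so its groups overlapped. Taken singly against the basal mean, KO DSS 1 and KO DSS 2 had 63.3 and 64.8 points moved, led in both by ranks 1, 2 and 3. KO DSS 3 had 43.5 points moved, led by ranks 5, 1 and 7, and its largest loss was that of rank 2.

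The Bray-Curtis distance sums up how far whole communities differ, from 0 where all shares are equal to 1 where no feature is shared. KO DSS 1 and 2 were 0.301 apart. KO DSS 3 lay 0.648 and 0.724 from them, and 0.478 and 0.493 from KO basal 1 and 2, which were 0.609 from each other. Each KO basal sample was thus nearer to KO DSS 3 than to the other basal sample. The same arrangement appeared in the 10 most abundant features of each sample. KO DSS 3 shared 6 and 5 of them with KO basal 1 and 2, but 2 and 1 with KO DSS 1 and 2, while KO DSS 1 and 2 shared 6. In a permutational multivariate analysis of variance, the R2 of treatment among the KO samples was 0.275, with a pseudo-F of 1.14 and an exact permutation p of 0.4 over 10 splits. Without KO DSS 3 the R2 was 0.588, with an exact permutation p that 6 splits cannot bring below 0.333. Without KO DSS 1 or KO DSS 2 it was 0.221 and 0.251, and without KO basal 1 or KO basal 2 it was 0.335 and 0.385. With fewer samples R2 tends to be higher even without an effect, so these values are not set against the 0.275.

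**Figure D3:**
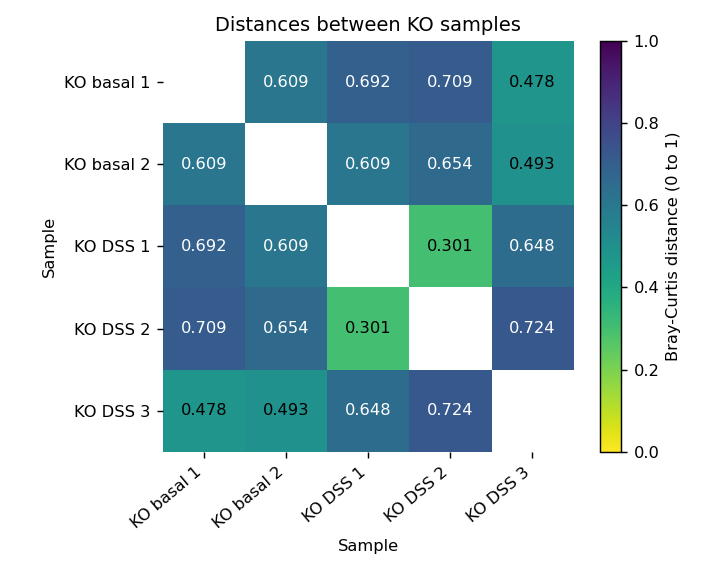
Bray-Curtis distance (0 to 1) between each pair of the 5 KO samples. The smallest is 0.301 between KO DSS 1 and KO DSS 2, and KO DSS 3 lies nearer to both KO basal samples (0.478 and 0.493) than to the other KO DSS samples (0.648 and 0.724).

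Gained features were defined as having no count in both KO basal samples and a count in at least 2 of 3 KO DSS samples. They numbered 51 of 595 (8.57%), and 36 of them were among the 352 features that reached 10 counts in 2 or more samples (10.2%). Most were rare: together they held 1.32%, 1.62% and 0.168% of KO DSS 1, 2 and 3, and 6 of them exceeded 0.1% in any sample. Of the 51, 30 were found in KO DSS 1 and 2 but not 3, 10 in KO DSS 2 and 3, 2 in KO DSS 1 and 3, and 9 in all 3 samples. WT samples held most of them. In WT DSS samples 36 of the 51 were found and in WT basal samples 25, with 6 found in no WT sample. Among all 595 features, 386 were found in WT DSS and 387 in WT basal samples. The 30 features shared by KO DSS 1 and 2 alone included 17 found in WT DSS and in no WT basal sample, a class of 74 among the 595.

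The 2 gained features of highest DSS mean were 08b39cf76131fdc5f8d1f1f6be0c2feb, of rank 87, and 6ffed603109d2d169a33bdce03fa3c99, of rank 125. Rank 87 held 0.446% and 0.0452% of KO DSS 1 and 2 and was not detected in KO DSS 3. Set against 3 counts per basal library, its DSS mean was at least 210.4-fold higher, or at least 29.0-fold without KO DSS 1 (edgeR adjusted p = 0.416). Rank 125 was found in all 3 DSS samples, at 0.0152%, 0.232% and 0.0163%, and was at least 112.9-fold higher, or at least 20.2-fold without KO DSS 2 (edgeR adjusted p = 0.552). It was present in both WT DSS samples, at 0.00532% and 0.557%, and in neither WT basal sample. The next 4 by mean, of ranks 151, 159, 197 and 202, were all absent from KO DSS 3. Rank 151 held 0.182% and 0.0113% of KO DSS 1 and 2 and was found in no WT sample. Rank 159 was more equal in these samples, at 0.0622% and 0.114%, and was found at 0.213% and 0.12% in WT DSS. Ranks 197 and 202 were mostly in KO DSS 2, at 0.104% and 0.105%, against 0.00608% and 0.00442% in KO DSS 1.

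Lost features had a count in both KO basal samples and none in at least 2 of 3 KO DSS samples. They numbered 39 of 595 (6.55%), with 35 among the 352 (9.94%). The definitions of gain and loss ask for different numbers of samples, so their counts are not set against each other. Together they held 3.05% and 7.01% of KO basal 1 and 2. Of the 39, 22 were still found in KO DSS 3, 6 in KO DSS 2, 2 in KO DSS 1, and 9 in no KO DSS sample. The 22 kept in KO DSS 3 held 1.0% of it. Of the 39, 34 were found in a WT basal sample and 29 in a WT DSS sample.

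The 2 lost features of highest basal mean were 2084437ee2c4f463e8142140a3b3b6ae, of rank 18, and 929ffcf33f4469db3f7fa7b750444799, of rank 33. Rank 18 made up 5.49% of KO basal 2 but had 8 counts in KO basal 1. Among the DSS samples it was found in KO DSS 1 alone, at 0.0677% (245 counts), above KO basal 1. Its basal mean was 121.7 times the DSS mean, but without KO basal 2 the direction reversed, with the DSS mean 11.4 times the basal share. Its edgeR log2 difference was −5.83 ± 2.49 (SE, adjusted p = 0.552). In WT it went the other way by value, at 0.00699% and no count in basal and 0.39% and 0.0146% in DSS samples (edgeR interaction adjusted p = 0.537). Rank 33 held 2.22% and 0.18% of the basal samples, had no count in KO DSS 1 and 2, and held 0.548% of KO DSS 3. Its basal mean was 6.56 times the DSS mean, or 12.1 times without KO basal 2 and 0.985 times without KO basal 1. Rank 121 was the most abundant feature found in both basal samples and missing from all 3 DSS samples, with 0.0141% and 0.254% in KO basal 1 and 2. Its basal mean was at least 174.3-fold higher than 3 counts per DSS library, or at least 18.3-fold without KO basal 2 (edgeR adjusted p = 0.552). Ranks 132 and 192 were likewise mostly in KO basal 2, at 0.229% and 0.105%, and rank 136 in KO basal 1, at 0.233%.

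**Figure D4:**
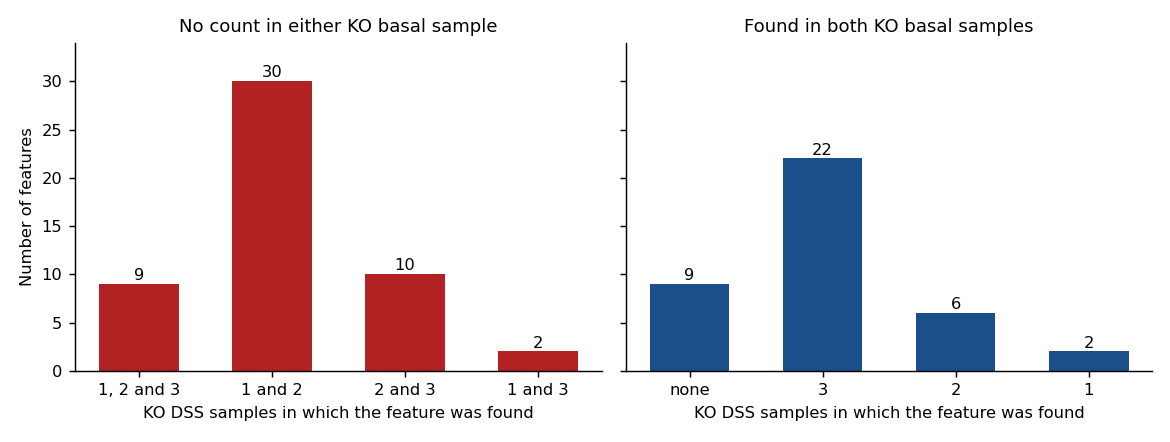
Number of features by the KO DSS samples in which they were found, for features with no count in either KO basal sample (left, found in at least 2 KO DSS samples) and for features found in both KO basal samples (right, found in at most 1 KO DSS sample). The tallest bars are 30 features gained in KO DSS 1 and 2 but not 3, and 22 basal features still found in KO DSS 3 alone.

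Single-sample features set the scale for these classes. Features found in KO basal 1 alone numbered 39 and in KO basal 2 alone 56, while KO DSS 1, 2 and 3 had 26, 60 and 27 of their own. Those of KO DSS 2 held 5.25% of its counts, and those of the other samples at most 1.39%. Features shared by any pair of KO samples numbered 166 to 227. The number was 188 for the basal pair and 227, 178 and 215 for the DSS pairs, against 166 to 214 for pairs of different treatment. The 111 features found in all 5 KO samples held 74.3% and 82.2% of the basal samples, 64.2% and 49.9% of KO DSS 1 and 2, and 90.2% of KO DSS 3. Rank 2 is not among the 111, since it had no count in KO basal 2.

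Features whose KO DSS and KO basal shares did not overlap numbered 68 of 352 (19.3%). In 19 (5.4%) all 3 DSS shares lay above both basal shares and in 49 (13.9%) all lay below. With so few samples such arrangements also arise without any effect of treatment, so the counts are a description and not evidence of a difference. A higher feature needs a count in all 3 DSS samples, a lower one only in both basal samples. The 19 and the 49 are therefore not set against each other. The 49 lower features together made up 22.9% and 20.3% of the basal samples and 2.05%, 3.0% and 8.07% of KO DSS 1, 2 and 3. The 19 higher ones made up 1.14% and 1.32% of basal and 6.9%, 7.16% and 3.66% of DSS samples. These sums follow from how the features were picked and are given as a description. The split by direction depends on the scale: with TMM-scaled library sizes 41 were higher and 34 lower, and with DESeq2 size factors 44 and 29. All 19 higher features kept their separation under both scalings, and 32 and 29 of the 49 lower ones did. With DESeq2 factors the 19 could not lose it, so this is no check on them. Relative to library totals, both basal factors (1.39 and 1.81) exceeded every DSS factor (0.548, 0.685 and 1.12), which raises DSS shares against basal ones. TMM factors were 0.829 and 1.61 in basal and 0.756, 0.981 and 0.687 in DSS samples. Without KO DSS 3, 156 of 305 features did not overlap, 69 higher and 87 lower. Fewer samples separate more easily, and with any KO sample left out the count (91 to 156) lay above 68. The 156 is therefore not set against the 68. In WT samples 3 of the 19 were higher in both DSS than in both basal samples and 2 were lower, while 10 of the 49 were lower and 6 higher. Over all 352 features, 48 were higher in both WT DSS samples and 46 lower.

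Of the 19 higher features, 4 were found in all 5 KO samples, those of ranks 24, 32, 34 and 66. Rank 24 held 0.0123% and 0.433% in basal samples and 1.29%, 1.11% and 1.0% in DSS samples, so the DSS shares were close together, at 1.14% ± 0.148 (SD, n = 3), including KO DSS 3. It was also higher in both WT DSS samples (0.695% and 1.51%) than in both WT basal samples (0.0542% and 0.0528%). Rank 32 had the smallest change of the 4 but tight groups, at 0.384% and 0.402% in basal and 0.603%, 0.78% and 0.793% in DSS samples. Rank 34 held 0.173% and 0.353%, then 0.767%, 1.14% and 0.465%. Rank 66 held 0.138% and 0.0169%, then 0.148%, 0.361% and 0.234%, so KO DSS 1 barely exceeded KO basal 1. The ratios of mean DSS to mean basal share of the 4 ran from 1.85 to 5.09, and their edgeR adjusted p-values from 0.559 to 0.995. With either basal sample left out, the ratio of rank 24 was 2.62 or 91.9, that of rank 34 was 2.24 or 4.56, and that of rank 66 was 1.80 or 14.7.

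Of the 49 lower features, 17 were found in all 5 KO samples, with basal means 1.76 to 20.3 times the DSS means (median 5.18). Of the 17, 8 kept their separation with TMM scaling and 6 with DESeq2 size factors, and with the latter 1 mean turned direction. The most abundant after rank 4 were ranks 16, 20 and 21. Rank 16 held 2.99% and 1.72% in basal samples and 0.907%, 1.0% and 0.106% in DSS samples, with KO DSS 3 the lowest. Rank 20 held 0.746% and 3.24%, then 0.0337%, 0.101% and 0.386%. Rank 21 held 1.35% and 2.07%, then 0.227%, 0.663% and 0.148%. Of these, rank 20 kept its separation with both other scalings and rank 21 with TMM, while ranks 4 and 16 kept it with neither. The edgeR adjusted p-values of ranks 16, 20 and 21 were 0.987, 0.633 and 0.894. Some lower features were not independent of each other. Ranks 38, 52 and 54, of which none kept its separation with TMM and rank 38 did not with DESeq2 factors, had a near-constant ratio across samples. Together they held 2.6% and 1.02% of basal and 0.117%, 0.0889% and 0.628% of DSS samples. With 11 such sets summed, 17 features were higher and 46 lower.

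**Figure D5:**
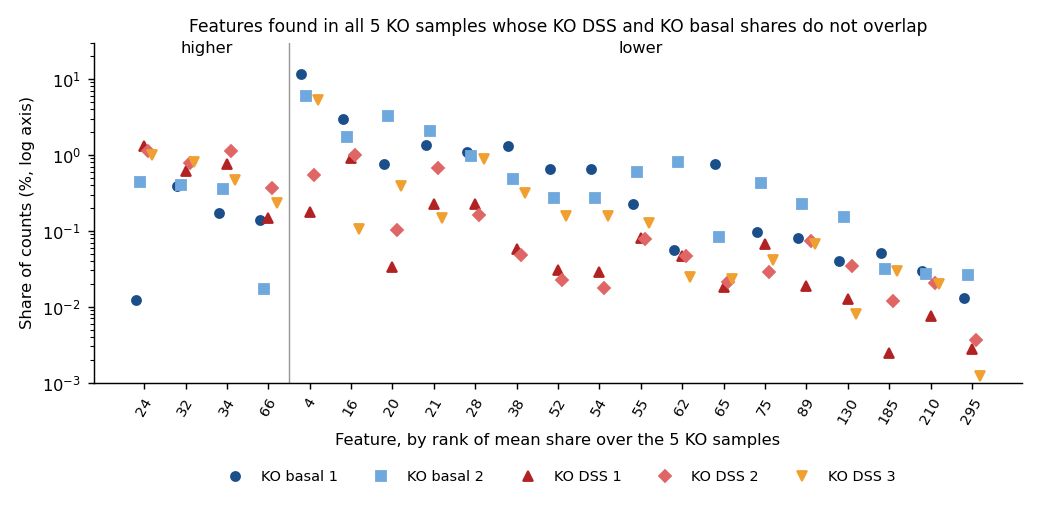
Share of counts (%, log axis) of the features found in all 5 KO samples whose KO DSS and KO basal shares do not overlap, 4 higher and 17 lower with DSS on library totals, by rank of mean share; of the 17, 8 remain separated with TMM scaling and 6 with DESeq2 factors. Each symbol is 1 sample. For ranks 4, 28 and 66 the gap between the groups is small beside the spread within them.

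KO DSS 3 followed the other KO DSS samples in part of the features. KO DSS 1 and 2 both lay above both basal samples in 71 of the 352 features, and KO DSS 3 was also above in 19, within the basal range in 47 and below it in 5. The range includes its ends, so the 47 include 22 features with no count in KO DSS 3 or either basal sample. Where a basal sample had no count, KO DSS 3 could not lie below, so these numbers are not set against those that follow. They both lay below both basal samples in 90 features, of which KO DSS 3 was also below in 49, within the range in 26 and above it in 15. The largest gaps between KO DSS 3 and the mean of KO DSS 1 and 2 were 26.4 percentage points lower for rank 2 and 13.8 lower for rank 3. In the other direction they were 16.7 points higher for rank 5 and 9.17 higher for rank 7. Of the other 8 samples, the nearest to KO DSS 3 by Bray-Curtis distance was WT basal 1 (0.465). The labels give all 3 KO DSS samples the same genotype and treatment, which could not be checked from the table. How much DSS each mouse drank, or how severe its colitis was, was not analysed here.

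Tested feature by feature, no difference between KO DSS and KO basal samples passed the threshold in edgeR or limma, while DESeq2 called 26 (5.3%), 22 higher and 4 lower. In edgeR's quasi-likelihood test 0 of 491 features (0%) had a Benjamini-Hochberg adjusted p under 0.05, with 31 (6.31%) at an unadjusted p under 0.05. The smallest edgeR adjusted p was 0.06, for a feature outside the 352, and 0.0518 in the fit without KO DSS 3. Of those 31, 16 were among the 352 features with 10 or more counts in at least 2 KO samples, 12 higher and 4 lower with DSS. limma on centred log-ratios called 0, with 24 at an unadjusted p under 0.05, all among the 352 and 9 higher and 15 lower. With edgeR on KO samples only, 8 were higher and 8 lower, so the split by direction depended on the test. Of the 26 that DESeq2 called, 16 were among the 352. Among the 352, the smallest edgeR p-values in the higher direction were those of ranks 212, 87 and 22, each with an adjusted p of 0.416. Rank 212 was found in all 3 DSS samples, at 0.0213%, 0.0508% and 0.0301%, and in neither KO basal sample. In WT it had no count in WT basal 1, and held 0.798% of WT basal 2 and 0.0968% and 3.09% of WT DSS 1 and 2, each above its KO DSS shares. In the lower direction they were those of ranks 41, 121 and 18, each with an adjusted p of 0.552. Rank 41 held 1.64% of KO basal 1 but 0.00109% of KO basal 2, and at most 0.0178% of a DSS sample. For the difference between the KO and WT responses, edgeR called 0 of 491 features and 44 had an unadjusted p under 0.05. DESeq2 called 9 features for it, and limma called 0, with 24 under 0.05 before adjustment.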

How the data were processed

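The deposited table gives raw counts, as whole numbers, for each feature in each sample. Per the labels' protocols, DNA from colon content was extracted with a fecal kit and sequenced paired-end on a MiniSeq. The amplified region and any denoising, filter or taxonomy were not given in the sources used here. Columns were matched to samples by the descriptions in the labels; 7 further columns match no sample and were not used. The samples, lists and tests were chosen with earlier results of these data known.

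Indices used Python 3.11.15, with natural logs. Their differences were tested by exact permutation, two-sided by absolute difference. Features with 10 or more counts in at least 2 of the 9 samples (491) were fitted with edgeR 4.0.16 (R 4.3.3): TMM factors, 4 group means sharing 1 estimate of the spread, quasi-likelihood F-test, and Benjamini-Hochberg adjustment over all 491. The SE of a log2 difference is its size divided by the root of its F. The median log2 difference over all features was 0.39 under TMM and 0.79 under DESeq2 1.42.0, and 0 when library totals were used. limma 3.58.1 used a pseudocount of 0.5. The edgeR fit of the KO contrast was also run on simulated counts. The outcome is not reported here, so it does not bear on how many differences these tests could find.

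Named were the 5 leading features of each sample, the 6 most abundant gained and lost ones, the 4 most abundant without overlap per direction among features found in all 5 KO samples, the 3 of smallest edgeR p per direction, and the 3 per direction furthest from the other DSS samples in KO DSS 3. Others (ranks 28, 38, 41, 52 and 54) follow from a set or plot they belong to, or from that rule. Sets of near-constant ratio have the same presence, 100 or more counts of both features in at least 4 samples, and a log2 ratio SD under 0.25.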

Additional observations from a re-analysis of the deposited data

How the results depend on the processing

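Every KO sample left out in turn kept the KO differences in evenness (−0.146 to −0.118) and in the share of the 10 most abundant features (16.8 to 19.5 percentage points). The evenness difference shrank to −0.00393 without the 5 features above 10% of a KO sample, which were picked by these same shares. The other indices, filters and summed sets kept their direction too, and none of these designs could reach an exact p of 0.05. The same holds for the R2 of treatment, at 0.221 to 0.588 with a sample left out. The count of 0 features past the edgeR threshold became 26 with the DESeq2 Wald test (139 features got no adjusted p), and the interaction count became 9; the cause was not tested. It stayed at 0 with limma, library totals, no filter, the stricter filter and KO samples only, and was 0 to 1 with a sample left out, for the interaction as well. The 1 call without KO basal 2 was of a feature outside the 352. The 1 interaction call without KO DSS 1 was of rank 18. Equal replicate numbers correlated at 0.0429 and 0.0696 between KO basal and KO DSS and at up to 0.364 (WT basal and WT DSS) over all group pairs. All of these correlations were positive, and in WT the samples of equal number were close in evenness. Because not every pair exceeded 0.1, a chosen cut, they were not taken as pairs. Whether equal numbers stand for a shared batch was not tested. A replicate block called 4 features (ranks 18, 22, 23 and 33, 1 higher and 3 lower) and 1 for the interaction, with KO DSS 3 taken up by a block of its own.

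Counts by presence moved most with the samples: gained features ran from 11 to 100 and lost ones from 11 to 118 with a sample left out, and both fell to 9 when all 3 DSS samples had to agree. The directions were fixed by the definitions, which still asked for 2 DSS samples. Leaving out a basal sample can only raise both counts, and leaving out a DSS sample can only lower both. Features without overlap ran from 91 to 156, all above the 68 of the full set, since fewer samples separate more easily. The difference between genotypes ran from −0.238 to 0.00837 in evenness and from −4.10 to 34.5 points in dominance, so its direction was not fixed. The counts with TMM and DESeq2 scaling and the ratios of mean shares with a sample left out were chosen after seeing the data. With 3 against 2 samples, the depth of 361636 to 407274 counts was not what limited the tests of indices.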
